A study of Mus musculus with 5 samples.

Results

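Psca, Ly6a, Ly6d, Prom1, Clu, Wfdc2, Ppp1r1b, Cd44 and Aldh1a1 are 9 genes known from the castration-resistant, stem-like luminal cells of the mouse prostate, and they were taken by symbol from the 24527 genes of the deposited count table. All 9 passed the filter on low counts (CPM, counts scaled to library size, had to exceed 1 in 2 samples or more) and were tested among 14612 genes. Bulk RNA-seq covered prostate tumor tissue of 5 separate TripleTg animals, 3 castrated and 2 intact. Every mouse, intact or castrated, carried all alleles of the model: hHGFtg (a human HGF transgene expressed ubiquitously), hMETtg (human MET at the H11 locus, H11 hMET/+), BCAT (Ctnnb1 L(Ex3)/+, a stabilized β-catenin) and PBCre. PBCre is the Cre recombinase of the PB-Cre4 line, whose probasin promoter limits MET and stabilized β-catenin to prostate epithelium and is itself responsive to androgen. Mice of the castrated group underwent castration at 4 months, and tissue of both groups was taken at 8 months of age. The question addressed here was how the progenitor genes differed between castrated and intact tumors, mouse by mouse.

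In the mouse prostate, most secretory luminal cells depend on androgen and are lost after castration. A smaller luminal population, enriched in the proximal ducts next to the urethra, survives without androgen and can rebuild the gland when androgen is restored. These cells are recognized by surface proteins such as Sca-1 (Ly6a), Psca, Ly6d and the pentaspan protein Prom1, by secreted proteins such as Clu and Wfdc2, and by Ppp1r1b, Cd44 and the retinaldehyde dehydrogenase Aldh1a1. None of the genes is restricted to prostate luminal cells: Cd44 and Ly6a are also made by stromal, endothelial and immune cells. In bulk tissue, fewer cells of a type and less RNA per cell cannot be told apart.

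The libraries of castrated replicates 1, 2 and 3 held 28015507, 18951782 and 20492061 counts, those of intact replicates 1 and 2 held 21560355 and 22853501. A common dispersion of 0.238 was estimated, so differences between mice limited the precision more than counting did. The intact samples were far apart in some markers of secretory luminal cells. Tgm4, a secreted transglutaminase of the prostate, was at 1347 CPM in intact replicate 2, 0.224 CPM in intact replicate 1, and 0.419, 0.0536 and 0.0487 CPM in castrated replicates 1, 2 and 3. Defb50, a defensin gene of prostate epithelium, was at 64.5 CPM in intact replicate 2, at 0 in intact replicate 1 and castrated replicates 2 and 3, and at 0.140 CPM in castrated replicate 1. Probasin (Pbsn) was at 5.21 CPM in intact replicate 2 and at 0 in intact replicate 1. Msmb was at 0 in all 5 samples. Of 17 secretory luminal genes 10 were tested, 5 with a higher and 5 with a lower mean in castrated samples, and their summed CPM was 361, 487 and 694 in castrated and 399 and 3182 in intact samples, with Tgm4 the most abundant. Other genes of the list went the other way between the intact samples, with Fkbp5 at 87.8 and 17.2 CPM and Slc45a3 at 29.9 and 18.4 CPM in intact replicates 1 and 2, and Tmprss2 was higher in both intact samples (232 and 305 CPM) than in the castrated ones (166, 206 and 171 CPM). By Tgm4 and Defb50, which were chosen after their values were seen, intact replicate 1 lay with the castrated samples and intact replicate 2 stood apart. Therefore the values of the members are also given without single samples. General epithelial genes did not show this gap. The geometric mean CPM over 16 genes such as Epcam, Cdh1 and Krt8 was 187.8, 171.0 and 180.9 in castrated and 232.9 and 199.9 in intact samples, and 13 of the 16 had a lower mean in castrated samples.

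Of the 9 genes, 9 had a higher mean in castrated samples (47.9% of all genes tested did) and 3, namely Wfdc2, Ppp1r1b and Prom1, had a log2 fold change above 1 (14.5% of all genes tested), while 0 had one under -1 (7.06%). The median log2 fold change was 0.55, against -0.03 over all 14612 genes. Every castrated sample lay above both intact samples for 2 members, Wfdc2 and Prom1, against 17% of all genes tested, and below both for 0 members, against 16.1%. In edgeR's quasi-likelihood test, 0 members and 0 genes, or 0%, reached both an adjusted p (Benjamini-Hochberg) under 0.05 and a log2 fold change above 1 in size. At an unadjusted p under 0.05 there was 1 member, Wfdc2, where 15% of all genes tested passed (8.74% of all genes were higher and 6.28% lower in castrated samples). The count of 9 higher members was 5 without intact replicate 1, 7 without castrated replicate 1 and 7 without castrated replicate 3, and it was 9 without castrated replicate 2 or intact replicate 2.

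**Figure D1:**
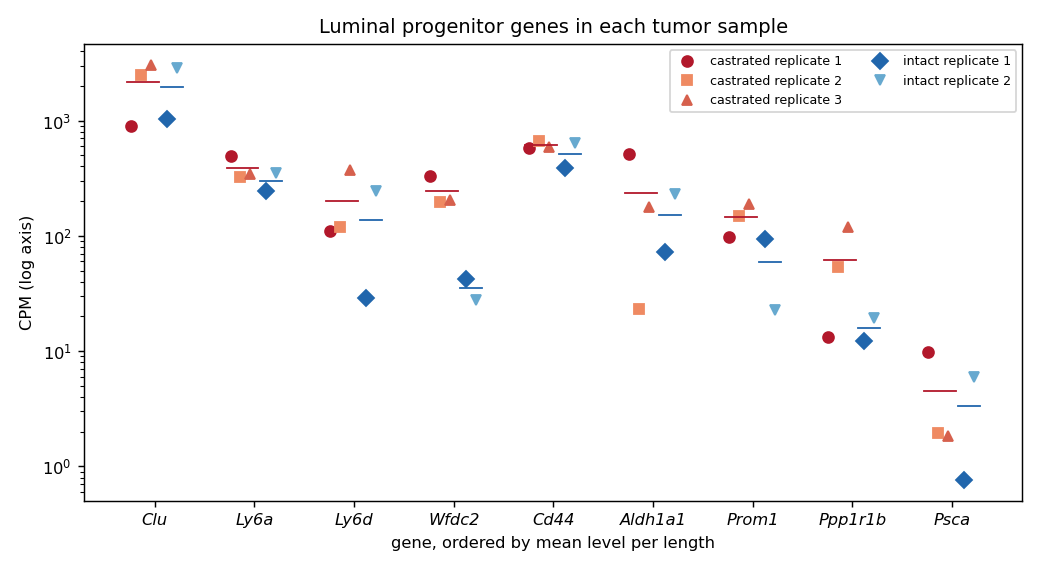
CPM (log axis) of the 9 genes in each of the 5 tumor samples, with genes ordered by mean level per length, points for samples and short lines for group means. Wfdc2 shows a wide gap between castrated (198 to 329) and intact samples (27.7 and 42.3), while Prom1 is barely separate and the groups overlap for the other genes.

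Wfdc2 (chromosome 2, 164562715 to 164568510, mm10) encodes a small secreted protein with whey acidic protein domains, also known as HE4. In castrated replicates 1, 2 and 3 its CPM was 329, 198 and 204, and in the intact ones 42.3 and 27.7. The lowest castrated sample was thus far above the highest intact sample, and the castrated samples differed among themselves by up to 1.67-fold. Group means were 244 ± 74.2 (SD, n = 3) and 35.0 ± 10.3 (SD, n = 2) CPM. The log2 fold change of Wfdc2 was 2.80 (SE, standard error, 0.37; 6.95-fold; edgeR adjusted p = 0.289), with an unadjusted p of 0.000498 that ranked 21 among the genes tested. A larger log2 fold change was found for 2.81% of genes. Wfdc2 was called by adjusted p and fold change with DESeq2 (adjusted p = 6.33e-09) and with edgeR's likelihood ratio test (adjusted p = 3.86e-05). These tests called 989 and 369 of all genes, and limma voom called 0 genes, Wfdc2 included. The difference did not rest on either intact sample, as the log2 fold change was 3.15 without intact replicate 1 and 2.48 without intact replicate 2, and it was 3.07 relative to the epithelial genes.

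Prom1 (chromosome 5, 43993622 to 44101736), the CD133 antigen of membrane protrusions, had a CPM of 97.9, 148 and 189 in castrated and 94.8 and 22.7 in intact samples. Castrated replicate 1 was only just above intact replicate 1, and intact replicate 2 was far below the rest. The group means were 145 ± 45.4 (SD, n = 3) and 58.8 ± 50.9 (SD, n = 2) CPM, and the log2 fold change was 1.30 (SE 0.65, edgeR adjusted p = 0.400). The value rested on intact replicate 2, since the log2 fold change was 0.57 without it and 2.69 without intact replicate 1. Of the 50-base words in Prom1 transcripts, 5.1% also occur in transcripts of other genes. In the GENCODE M21 annotation the locus overlaps Gm42716 on the same strand over 22657 bases and Gm16401 on the opposite strand. The origin of reads from shared stretches is therefore uncertain.

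The upstream sequences of Wfdc2 and Prom1 are shown because these were the members whose groups did not overlap. Each is the 250 bases before the RefSeq start of the gene, 5′ to 3′ on the gene's strand (GRCm38.p6), in lower case with a GC box in capitals (GGGCGG read on either strand). The windows are chr2:164562465-164562714 on the plus strand for Wfdc2 and chr5:44101737-44101986 on the minus strand for Prom1.
Wfdc2: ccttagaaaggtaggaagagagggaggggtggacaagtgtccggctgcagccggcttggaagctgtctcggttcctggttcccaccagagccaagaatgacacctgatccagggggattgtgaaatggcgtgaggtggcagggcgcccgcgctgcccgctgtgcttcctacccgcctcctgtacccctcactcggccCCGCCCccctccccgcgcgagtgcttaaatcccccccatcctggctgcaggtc
Prom1: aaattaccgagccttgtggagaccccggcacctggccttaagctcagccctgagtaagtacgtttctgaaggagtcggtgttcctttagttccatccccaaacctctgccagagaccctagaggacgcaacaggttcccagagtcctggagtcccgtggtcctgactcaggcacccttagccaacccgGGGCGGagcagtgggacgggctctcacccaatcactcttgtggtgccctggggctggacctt
Windows were at hand for 4 members, the other 2 being Cd44 and Aldh1a1. In these 4 windows the hexamer AGAACA, a core of androgen response elements, was found in 0 and the TCF/LEF motif ATCAAAG in 0, on either strand. Of 32851 mouse promoter windows of the same length, 16.1% held AGAACA and 3.21% held ATCAAAG. The GC box, searched after those motifs had been looked for, stood 62 bases before the start of Prom1, and on the other strand 53 bases before that of Wfdc2, whereas 32.7% of all windows held it. The GC content was 64.8% in the Wfdc2 window and 59.2% in the Prom1 window. A match of letters is a description of the sequence, and no binding was measured.

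Psca, Ly6a and Ly6d belong to the LY6 family of small GPI-anchored surface proteins and lie in one gene cluster on chromosome 15. Ly6a (74994877 to 74998031), the Sca-1 antigen used to isolate prostate progenitor cells, had a CPM of 493, 327 and 342 in castrated and 247 and 348 in intact samples. Intact replicate 2 was within the castrated range, and the log2 fold change was 0.38 (SE 0.30, edgeR adjusted p = 0.579), or 0.18 and 0.61 without intact replicates 1 and 2. Of the 50-base words in Ly6a transcripts, 19% also occur in Ly6c1, Ly6i, Ly6c2 or I830127L07Rik, so part of its counts could have been shared with these genes. Ly6d (74762056 to 74763567), a surface marker of castration-resistant luminal progenitors, was at 111, 120 and 370 CPM in castrated and 29.1 and 244 CPM in intact samples. Intact replicate 2 thus exceeded intact replicate 1 by 8.38-fold and lay above the castrated replicates 1 and 2. The log2 fold change of Ly6d, 0.55 (SE 0.99, edgeR adjusted p = 0.820), became -0.27 without intact replicate 1 and 2.74 without intact replicate 2.

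Psca (74714839 to 74717065), the prostate stem cell antigen, was the least abundant member, with 283, 36 and 38 counts in castrated and 17 and 128 counts in intact samples. These correspond to a CPM of 9.87, 1.93 and 1.85 in castrated and 0.762 and 5.95 in intact samples. High and low samples were found in both groups, and the log2 fold change was 0.45 (SE 1.15, edgeR adjusted p = 0.880). It reversed to -0.82 without castrated replicate 1 and to -0.36 without intact replicate 1.

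The interval from Psca to Ly6a spans 283193 bases and holds 17 genes of the deposited files, LY6 genes and others, of which 8 were tested. Among these, the groups were separate for 1 gene, where 17% of all genes tested were higher and 16.1% lower without overlap. This gene was Lynx1, a LY6 protein that modulates nicotinic receptors, with 27.3, 25.4 and 36.2 CPM in castrated and 21.5 and 22.4 CPM in intact samples. Ly6e, between Ly6d and Ly6a, was counted at 1598 CPM or more in every sample, with a log2 fold change of 0.07. Over the LY6 list, which includes the 3 members, 19 of 28 genes were tested, 11 had a higher and 8 a lower mean, and the median log2 fold change was 0.28. Groups were separate upward for 4 of the 19 and downward for 1. Ly6c2, a LY6 antigen of myeloid and lymphoid cells, had a CPM of 5.79, 18.2 and 14.8 in castrated and 0.627 and 0.604 in intact samples, with a log2 fold change of 4.38 (SE 0.68, edgeR adjusted p = 0.289). Ly6k had a log2 fold change of -1.22 (SE 1.02, edgeR adjusted p = 0.607). It was at 25.3 CPM in intact replicate 2 and between 1.48 and 6.43 CPM in the other samples. Whether neighbouring LY6 genes differed from each other in size or direction was not tested.

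Cd44 (chromosome 2, 102811142 to 102901665), the main receptor for hyaluronan, was the steadiest member. It had a CPM of 579, 661 and 591 in castrated and 387 and 642 in intact samples, a log2 fold change of 0.25 (SE 0.31, edgeR adjusted p = 0.731). The groups overlapped, and the log2 fold change was -0.05 without intact replicate 1. Of 18 tested genes of CD44 and hyaluronan biology, Cd44 included, 9 had a higher and 9 a lower mean. Groups were separate upward for 4 of the 18 and downward for 5, where 17% and 16.1% of all genes tested were. Spp1 (osteopontin), a secreted ligand of Cd44, was the most abundant of them, with 458, 8575 and 1349 CPM in castrated and 550 and 396 CPM in intact samples and overlapping groups. Hmmr, a hyaluronan receptor that also acts at the mitotic spindle, was lower in each castrated sample (4.47, 3.92 and 6.48 CPM) than in the intact samples (15.6 and 23.1 CPM). Esrp2, which with Esrp1 controls splicing of Cd44 in epithelium, was also lower in each castrated sample, at 58.4, 49.1 and 47.6 CPM against 96.8 and 88.7 CPM. Lyve1, a hyaluronan receptor of lymphatic vessels and some macrophages, was on the other side, at 25.6, 35.5 and 30.6 CPM in castrated and 12.2 and 3.67 CPM in intact samples. The edgeR adjusted p was 0.289 for Hmmr, 0.289 for Esrp2 and 0.294 for Lyve1. Counts per gene do not separate the splice forms of Cd44.

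Clu (chromosome 14, 65968483 to 65981548), a secreted chaperone long known from the castrated rodent prostate, had the highest level per length of the 9 genes. Its CPM was 905, 2497 and 3047 in castrated and 1022 and 2880 in intact samples. Both groups held a low and a high sample, with castrated replicate 1 the lowest of all, and the log2 fold change was 0.14 (SE 0.74, edgeR adjusted p = 0.946). Its sign changed to -0.40 without intact replicate 1. Among 12 tested genes of clusterin, its receptors, lipoproteins and chaperones, 5 had a higher and 7 a lower mean. Groups were separate upward for 2 of the 12 and downward for 0, where 17% and 16.1% of all genes tested were. Apoe, the lipid carrier that is abundant in macrophages, was higher in each castrated sample, at 2280, 3579 and 2925 CPM, than in the intact samples, at 998 and 1171 CPM. Trem2, a lipid and clusterin receptor of macrophages, was at 24.1, 163 and 74.5 CPM in castrated and 14.9 and 22.5 CPM in intact samples. The macrophage list moved with both genes, and its part in their values was not tested.

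Ppp1r1b (chromosome 11, 98348406 to 98357796), or DARPP-32, becomes an inhibitor of protein phosphatase 1 when protein kinase A phosphorylates it. It had a CPM of 13.3, 53.4 and 119 in castrated and 12.2 and 19.3 in intact samples. Castrated replicates 2 and 3 were above the intact samples, while castrated replicate 1 lay between them. The log2 fold change was 1.97 (SE 0.91, edgeR adjusted p = 0.376), and it was 1.09 without castrated replicate 3, 1.69 without intact replicate 1 and 2.29 without intact replicate 2. The Ppp1r1b locus overlaps 1700003D09Rik on the opposite strand, and 8.98% of the 50-base words in Ppp1r1b transcripts are shared with that gene. The use of strand in counting is not given in the sources used here, so the origin of reads from the shared stretch is uncertain. Of 17 tested phosphatase 1 and kinase A genes, 11 had a higher and 6 a lower mean. Groups were separate upward for 4 of the 17 and downward for 1, where 17% and 16.1% of all genes tested were. The catalytic subunits of the phosphatase overlapped between the groups, with Ppp1ca between 257 and 356 CPM, Ppp1cb between 381 and 633 CPM and Ppp1cc between 86.0 and 161 CPM. Those of the kinase were higher in each castrated sample, with Prkaca at 91.6, 83.2 and 89.3 CPM against 61.5 and 65.6 CPM and Prkacb at 119, 150 and 118 CPM against 95.4 and 97.1 CPM.

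Aldh1a1 (chromosome 19, 20492583 to 20643463), which oxidizes retinaldehyde to retinoic acid and marks progenitor cells in several epithelia, varied most between samples. Its CPM was 509, 23.2 and 178 in castrated and 72.7 and 232 in intact samples, so both the highest and the lowest sample were castrated. The log2 fold change was 0.64 (SE 1.20, edgeR adjusted p = 0.831) and became -0.60 without castrated replicate 1. Of the 50-base words in Aldh1a1 transcripts, 3.06% also occur in Aldh1a7. Aldh1a3, which makes the same product and is expressed in prostate luminal cells, was separate between the groups, at 159, 272 and 356 CPM in castrated and 68.1 and 91.6 CPM in intact samples, a log2 fold change of 1.72 (SE 0.40, edgeR adjusted p = 0.289). Over the retinoid pathway, 22 of 24 genes were tested, 13 had a higher and 9 a lower mean, and the median log2 fold change was 0.19. Groups were separate upward for 3 of the 22 and downward for 2, where 17% and 16.1% of all genes tested were. Retinoic acid signaling was not tested. Rarb, a retinoic acid receptor, was at 23.5, 35.5 and 36.8 CPM in castrated and 16.3 and 9.90 CPM in intact samples. Stra6, a receptor for retinol uptake, was lower in each castrated sample, at 152, 172 and 182 CPM against 242 and 479 CPM.

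**Figure D2:**
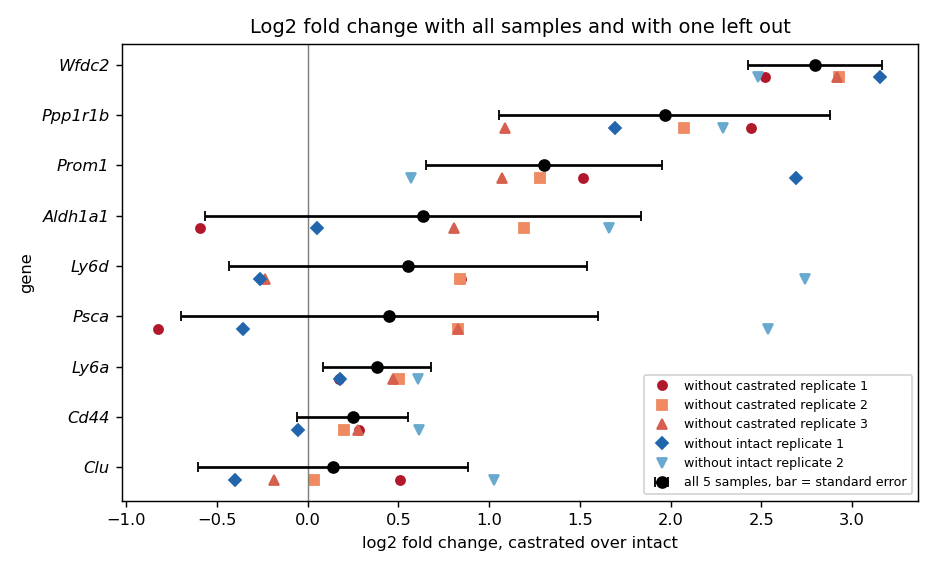
Log2 fold change of castrated over intact samples for the 9 genes, with all 5 samples (black points, bars are standard errors) and with each sample left out in turn (colored symbols). Wfdc2 remains between 2.48 and 3.15, whereas Psca ranges from -0.82 to 2.54 and Ly6d from -0.27 to 2.74.

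Measured per length (TPM, counts per kilobase scaled to one total in each sample), the mean levels over the 5 samples descended from Clu (2548) through Ly6a (797), Ly6d (559), Wfdc2 (528), Cd44 (229), Aldh1a1 (151), Prom1 (63.4) and Ppp1r1b (47.3) to Psca (10.5). Clu alone held 51.6% of the summed TPM of the 9 genes and stood at percentile 99.7 of the genes tested, whereas Psca stood at percentile 31.7. Within the intact samples, Wfdc2 had a mean of 110 TPM and stood behind Cd44 at 190 TPM. In castrated samples its mean of 807 TPM came next after Ly6a at 910 TPM. Between neighbours in the order the ranges over samples overlapped in every case but Clu and Ly6a. For instance, Ly6d ranged from 104 to 1246 TPM and Wfdc2 from 72.6 to 1092 TPM, and Aldh1a1 from 18.3 to 398 TPM and Prom1 from 10.3 to 107 TPM. The lowest TPM of Clu, 1179, was just above the highest TPM of Ly6a, 1161, and the highest TPM of Psca, 27.2, was above the lowest of Ppp1r1b, 14.3.

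The members did not share a sample order. Castrated replicate 1 was the highest sample for 4 members (Psca, Ly6a, Wfdc2 and Aldh1a1), castrated replicate 3 for 4 (Ly6d, Prom1, Clu and Ppp1r1b) and castrated replicate 2 for 1 (Cd44). Intact replicate 1 was the lowest sample for 5 members, among them all 3 of the LY6 family. The intact samples differed in opposite directions for different members. Intact replicate 2 exceeded intact replicate 1 by 8.38-fold for Ly6d, 7.81-fold for Psca, 3.19-fold for Aldh1a1 and 2.82-fold for Clu, while its level of Prom1 was 0.240 and that of Wfdc2 0.655 of the level in intact replicate 1.

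**Figure D3:**
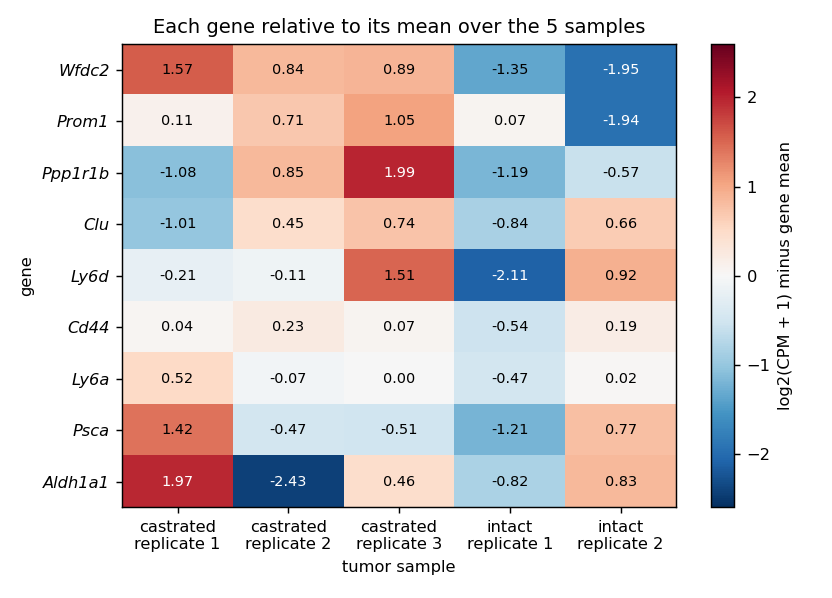
Values of log2(CPM + 1) minus the gene's mean over the 5 samples, for the 9 genes (vertical) and the samples (horizontal), red above and blue below the mean. Wfdc2 is the gene with all castrated samples well above and both intact samples well below its mean, and Aldh1a1 spans 1.97 to -2.43 within the castrated group.

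Likeness between genes was measured as the root mean square difference of mean-centred log2(CPM + 1) over the 5 samples, in log2 units, a description over shared libraries. Among the 3 genes of the lists nearest to Ly6d were Col17a1 (0.34), a hemidesmosome collagen of basal cells, and Trp63 (0.35), the basal transcription factor p63. Trp63 was at 21.6, 30.9 and 88.3 CPM in castrated and 6.09 and 101 CPM in intact samples, with intact replicate 1 the lowest, as for Ly6d. Nearest to Prom1 were the receptor tyrosine kinase gene Kit (0.35) and Lyve1 (0.35). Kit had a CPM of 58.5, 68.4 and 65.0 in castrated and 32.8 and 13.3 in intact samples. The gene nearest to Wfdc2 was the neuroendocrine granule gene Chga (0.47), and the nearest member was Prom1 (0.92). Cd44 lay nearest to Esrp1 (0.09) and Ly6a to Ly6g6c (0.20), Clu to the integrin gene Itga2 (0.25), Psca to Tnfrsf19 (0.55) and Aldh1a1 to the keratin gene Krt13 (0.72). Among the 3 nearest to Ppp1r1b was the lymphocyte gene Cd2 (0.41). The members thus did not follow one profile: the farthest pair, Ppp1r1b and Aldh1a1, differed by 2.21 and the nearest pair, Ly6a and Cd44, by 0.27.

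Other genes of proximal luminal cells were compared as a list that does not hold the members. Of 16 tested, 7 had a higher and 9 a lower mean in castrated samples, with a median log2 fold change of -0.17. The mean over the list of centred log2(CPM + 1) had the other sign of difference, with -0.22, 0.19 and 0.59 in castrated and -0.32 and -0.25 in intact samples. Krt4, a keratin of proximal luminal cells, was higher in each castrated sample, at 73.5, 93.6 and 147 CPM, than in the intact samples, at 28.8 and 23.5 CPM. The edgeR adjusted p of Krt4 was 0.289. Tspan1, a tetraspanin, was at 186, 198 and 270 CPM in castrated and 111 and 145 CPM in intact samples. Itga6, an integrin subunit, separated the other way, at 324, 270 and 192 CPM in castrated and 373 and 798 CPM in intact samples (log2 fold change -1.16, SE 0.41, edgeR adjusted p = 0.316). Its log2 fold change was -1.59 without intact replicate 1 and -0.55 without intact replicate 2. Krt19 (between 511 and 733 CPM) and Sox9 (between 79.9 and 132 CPM) overlapped between the groups. In the proximal list the groups were thus separate upward for 2 of 16 genes and downward for 1, where 17% and 16.1% of all genes tested were, and one list was not tested against the other. Of the stem cell genes listed with Prom1, Abcg2, a drug efflux transporter, was at 29.3, 32.7 and 44.7 CPM in castrated and 15.5 and 12.4 CPM in intact samples. The Wnt target Lgr5 was lower in each castrated sample, at 60.5, 38.2 and 30.1 CPM against 73.5 and 163 CPM. Prom2, the paralog of Prom1, was likewise lower, at 192, 109 and 77.7 CPM against 277 and 203 CPM. The edgeR adjusted p was 0.289 for Abcg2, 0.297 for Lgr5 and 0.363 for Prom2. In this list of 16 tested genes, 9 had a higher and 7 a lower mean. Groups were separate upward for 5 of them and downward for 3, where 17% and 16.1% of all genes tested were.

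Of 15 WAP family genes in the files, 7 were tested. With Wfdc2 itself counted, 6 had a higher and 1 a lower mean, the groups did not overlap for 4 (17% of all genes tested were higher without overlap), and the median log2 fold change was 1.58. The gene with a lower mean was Wfdc15b, at 0.628, 1.61 and 1.95 CPM in castrated and 1.34 and 15.8 CPM in intact samples. Slpi, a secreted protease inhibitor of epithelia and myeloid cells, was at 48.0, 610 and 47.5 CPM in castrated and 19.7 and 33.1 CPM in intact samples. Wfdc1 was at 3.31, 5.90 and 9.94 CPM in castrated and 2.69 and 1.58 CPM in intact samples, and Wfdc21 at 1.99, 1.88 and 2.78 against 0.672 and 0.511 CPM. Wfdc17 (31.2, 132 and 39.8 against 23.7 and 49.5 CPM) and Wfdc18 (7.50, 13.0 and 11.9 against 11.7 and 2.84 CPM) overlapped between the groups.

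Markers of other cell types differed between the samples too, and their counts stand beside 47.9% of all genes tested with a higher mean, 17% higher without overlap and 16.1% lower without overlap. Smooth muscle genes had a higher mean in 10 of 10 cases and did not overlap in 9, with a summed CPM of 489, 863 and 896 in castrated and 283 and 204 in intact samples, of which Acta2 was the most abundant. For macrophages this held for 12 of 12 and 11 genes, with sums of 2689, 7538 and 3065 CPM in castrated and 1149 and 1709 CPM in intact samples, led by Lyz2. The fibroblast list had 10 of 11 genes with a higher mean and 6 without overlap, and sums of 5169, 6136 and 8369 against 4541 and 2771 CPM, led by Dcn. Wfdc2 and Prom1 were thus high in the group in which these lists were high. Within the castrated group, castrated replicate 1 was the lowest sample for all 3 sums and for Prom1, and the highest for Wfdc2. Neuroendocrine genes had a higher mean in 6 of 7 tested cases, each of the 6 without overlap, and were at low levels: Chga was at 4.43, 5.31 and 6.53 CPM in castrated and 0.0896 and 0.186 CPM in intact samples. Basal genes had a higher mean in 4 of 12 cases and 1, Krt15, without overlap (115, 171 and 373 against 27.1 and 57.1 CPM). Krt5, the defining basal keratin, was at 128, 90.5 and 290 CPM in castrated and 28.9 and 405 CPM in intact samples. Proliferation genes were lower in each castrated sample for 10 of 10 genes, with sums of 145, 202 and 211 against 410 and 497 CPM, and seminal vesicle genes were nearly absent, with a sum of 7.72 CPM in intact replicate 2 and at most 0.174 CPM in the other samples. Adipocyte genes separated castrated replicates 2 and 3 (sums of 2424 and 1594 CPM) from castrated replicate 1 (217 CPM) and the intact samples (90.2 and 311 CPM), with Lpl the most abundant. Lymphocyte sums were 32.0, 272 and 186 CPM in castrated and 14.6 and 59.3 CPM in intact samples. Endothelial sums (760, 361 and 447 against 572 and 239 CPM), nerve sums (628, 247 and 134 against 647 and 31.4 CPM) and urothelial sums (209.8, 154 and 221 against 60.4 and 567 CPM) overlapped between the groups. The part of these cell types in the values of the luminal progenitor genes was not tested.

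**Figure D4:**
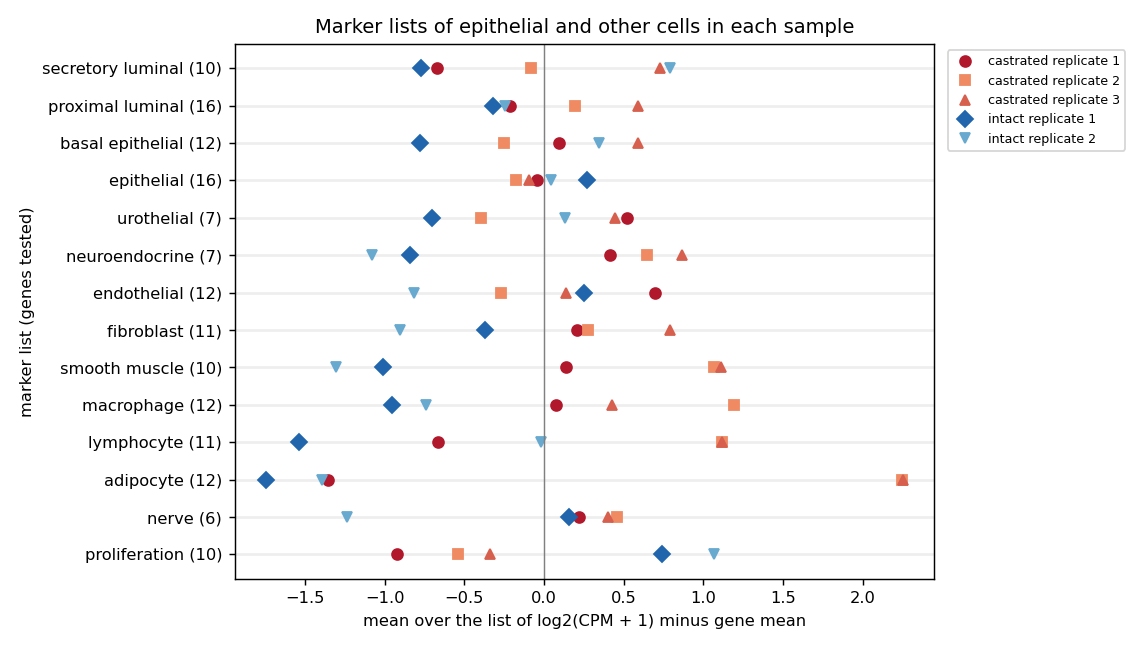
Mean over each marker list of log2(CPM + 1) minus the gene mean, for 14 lists (vertical, with the number of genes tested) in the 5 samples (symbols). Smooth muscle, macrophage, fibroblast, neuroendocrine and, by narrow margins, proximal luminal, adipocyte and nerve lists have the castrated samples to the right of both intact samples, the proliferation and epithelial lists have them to the left, and the other lists mix the groups.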

How the data were processed

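RNA was extracted from prostate tumor tissue of 3 castrated and 2 intact mice. The authors depleted ribosomal RNA, used Trimmomatic 0.39 for trimming, STAR 2.7.9 for alignment to mm10 and HTSeq 2.0.2 for counting, per the submitters' processing notes, and deposited raw counts per gene. The deposited table also gives gene lengths in kilobases, used here for TPM. Use of strand in counting is not given in the sources used here. Counts were analyzed with edgeR 4.0.16 in R 4.3.3. The quasi-likelihood F-test with TMM factors was run on the 14612 genes whose CPM exceeded 1 in 2 or more samples, with Benjamini-Hochberg adjustment over all of them, and a call needed an adjusted p under 0.05 and a log2 fold change above 1 in size. The study names TPM as input, replaced here by the counts that the test needs. Printed CPM are TMM-scaled, and the SE is the size of the log2 fold change over the square root of F. P-values weigh the difference between the groups against the spread between these mice.

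The 9 genes and the other lists were chosen with earlier results of these data known. From each list, the 3 genes with the highest mean CPM and those without overlap between groups at an unadjusted p under 0.05 could be named, with the 3 nearest profiles for each member. Tgm4, Pbsn, Msmb, Defb50, Fkbp5, Slc45a3, Krt5, Sox9, Lynx1, Ly6k, Slpi, Prom2, Wfdc15b, Wfdc18, Ppp1cc, Prkacb and Coch were chosen after their values were seen where that rule did not name them. The procedure was run on simulated counts with large planted changes and a dispersion that followed only the trend over genes. Because the data also hold gene-specific spread, this run does not measure error rates or power here. Alternatives were DESeq2 1.42.0, limma 3.58.1 (voom), edgeR's likelihood ratio test, other scalings and filters, the replicate number as a block, and leaving out each sample. Promoter sequences are from RefSeq, on GRCm38.p6, matched by symbol. Some genes of the lists are not reported here by name. Single-cell and other data of the study were not analysed here.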

Additional observations from a re-analysis of the deposited data

How the results depend on the processing

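The spread between mice set the precision, and the cause of each change below was not tested. The older quasi-likelihood fit of edgeR was added after seeing the data. Genes called numbered 0 with edgeR's quasi-likelihood test, where 2195 had an unadjusted p under 0.05, and 0 with limma voom. DESeq2 called 989 (703 higher, 286 lower), the likelihood ratio test 369 (276 higher, 93 lower), and an unadjusted p with the fold change threshold gave 1596. Members called numbered 1, Wfdc2, in each of these 3. At an unadjusted p under 0.05, DESeq2 gave 2 members and 3029 of 14612 genes, and the likelihood ratio test 2 members and 2174 genes. Members at this threshold also numbered 2 relative to the epithelial list. That scaling moved the median of all genes from -0.03 to 0.23, and genes at an unadjusted p under 0.05 from 1277 higher and 918 lower to 2031 higher and 340 lower.

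Without one replicate, genes called ranged from 0 to 1 (Coch, without intact replicate 1, at 1493 CPM in intact replicate 2 and at most 3.17 CPM elsewhere), genes at an unadjusted p from 1011 (without castrated replicate 3) to 3292 (without intact replicate 1), members at an unadjusted p from 1 to 2, and members with a higher value from 5 to 9. Log2 fold changes that changed sign ranged from -0.82 to 2.54 for Psca, -0.27 to 2.74 for Ly6d, -0.40 to 1.03 for Clu, -0.052 to 0.62 for Cd44, -0.60 to 1.66 for Aldh1a1, -0.90 to 0.39 for Cd24a, -0.015 to 1.38 for Ltf, -0.18 to 0.19 for Ly6e, -0.028 to 1.47 for Wfdc17, -0.014 to 0.24 for Hspa5, -0.85 to 0.46 for Tnfrsf19, -0.55 to 0.12 for Ppp1cb, -0.062 to 0.64 for Prkar1a and -0.12 to 0.13 for Ppp1ca. Wfdc2, Prom1, Ppp1r1b and Ly6a kept their sign in all 16 alternatives, with an adjusted p for Wfdc2 from 6.33e-09 (DESeq2) to 0.689 (edgeR without castrated replicate 3).

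With the replicate number as a block, 1046 genes had an unadjusted p under 0.05 and 0 were called, and the log2 fold change reversed to -0.19 for Clu, -0.25 for Aldh1a1 and -0.24 for Ltf, while that of Wfdc2 was 2.89. Same-numbered samples are different animals, and their deviations from the group means correlated by 0.17 for replicate 1 and -0.03 for replicate 2 across genes. With limma voom Aldh1a1 reversed to -0.049, and relative to the epithelial list Krt19 reversed to 0.0027. Clu was not tested without the 20 genes with the most counts, and Psca not with a CPM above 1 in all samples.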
